A study of Mus musculus with 6 samples.

Results

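The 10 genes described here encode the core transcription factors of heart muscle: Gata4 and Gata6, Nkx2-5, the MEF2 factors Mef2a, Mef2c and Mef2d, the T-box factors Tbx5 and Tbx20, Hand2, and Srf. They were chosen by gene symbol, and all 10 were found among the 22298 genes of the deposited table. RNA was measured by poly(A)-selected sequencing of hearts from wild-type (WT) female mice aged 18 months. One group of 3 samples had sham surgery. The other group of 3 had TAC surgery, the usual abbreviation for transverse aortic constriction, which narrows the aorta and loads the left ventricle with pressure. Both groups share sex, age and genotype. The sources used here do not give the strain, the heart chamber or the interval between operation and sampling, and the labels do not state that each sample came from a different animal. The p-values therefore measure only the spread between these samples.

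These proteins bind DNA next to one another at enhancers of heart genes and act in combination. GATA4 and GATA6 are zinc-finger proteins that bind the GATA motif, NKX2-5 is a homeodomain protein, and TBX5 and TBX20 are T-box proteins. MEF2 factors and SRF belong to the MADS-box class, and HAND2 is a basic helix-loop-helix protein that binds E-boxes. In embryos they specify cardiac cells and drive one another's genes. In the adult heart they maintain the genes of the sarcomere, ion channels and natriuretic peptides, and GATA4, MEF2 and SRF are known as endpoints of hypertrophic signalling, often by changes in their activity or location and not in their amount of RNA.

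The promoters of 3 members are shown because they hold motifs for factors of the same set. Sequences are from RefSeq on GRCm38.p6, in which 7 of the 10 members had an entry. Entries for Gata4, Gata6 and Tbx5 were missing. Positions count from the start site, with the first transcribed base as 1. Capitals mark CArG boxes (the motif of SRF) in the Srf line, the MEF2 site in the Mef2a line and GATA sites in the Hand2 line.
Srf, chr17:46556187-46556272, minus strand: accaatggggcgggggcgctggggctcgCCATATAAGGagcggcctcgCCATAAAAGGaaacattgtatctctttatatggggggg
Mef2a, chr7:67372851-67372898, minus strand: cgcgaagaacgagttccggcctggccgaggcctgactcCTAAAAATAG
Hand2, chr8:57320748-57320838, plus strand: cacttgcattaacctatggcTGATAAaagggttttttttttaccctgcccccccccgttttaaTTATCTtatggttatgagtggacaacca

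The Srf promoter held 2 CArG boxes, at -82 to -73 and -62 to -53. Of all 32817 promoter windows of 300 bases, 1.63% held at least 1 CArG box. In Mef2a a MEF2 site lay across the start site itself, from -2 to 8, and 3.19% of all windows held such a site. Hand2 held 2 GATA sites, at -215 to -210 and -172 to -167. A GATA site was any of the words AGATAA (searched first), AGATAG (the second), TGATAA (the third) or, as the last, TGATAG, and 29.8% of all windows held at least 1 of these. The T-box element AGGTGT was found in 1 of the 3 windows of Mef2c (13.7% of all windows). The NKX2-5 motif AAGTG was found in each window of Mef2c and in those of Hand2 and Srf (46.4% of all windows). The E-box CANNTG, which can overlap AAGTG, was found in the windows of Nkx2-5 and Hand2 and in 2 of the windows of Mef2c (72.3% of all windows). Both strands were searched. The windows of Mef2d and Tbx20 held none of these 6 motifs, which says only that the letters are not in those 300 bases.

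None of the 10 factors passed the test across all genes, and none differed between the groups by as much as 2-fold. For 4 members the 3 TAC values lay wholly to 1 side of the 3 sham values, 2 lower in TAC (Tbx5 and Mef2d, against 13.1% of all tested genes) and 2 higher (Tbx20 and Mef2c, against 18.4%), which is near the shares of the whole table. The other 6 (Gata4, Gata6, Nkx2-5, Mef2a, Hand2 and Srf) overlapped. Estimated counts of a member ran from 701 to 5561 per library, so counting error was at most 3.78% of a value. Values are given as CPM, counts relative to library sizes scaled by TMM, which corrects for a few abundant genes, or as the deposited FPKM, which is also divided by transcript length.

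With edgeR's quasi-likelihood test and Benjamini-Hochberg adjustment over 13708 genes, 0 members were higher and 0 lower in TAC, against 1.12% and 0.54% of all tested genes. At an unadjusted p under 0.05 the counts were 2 higher and 2 lower, against 16.3% and 9.26% of all genes. CPM without overlap placed 2 members higher and 2 lower, against 18.4% and 13.1% of all genes. With 10 genes, 1 gene is 10% of the set, so these counts are not read as different from the whole table. DESeq2's Wald test called 1 member higher (Tbx20) and 2 lower (Tbx5 and Mef2d), against 7.26% and 4.06% of all genes. Limma-trend on log2 of FPKM plus 1 called 0 in each direction, against 0.513% and 0.574%. Limma-voom also called 0 in each direction, against 0.7% and 0.547%. The library labelled TAC replicate 1 was nearer to sham than the other TAC libraries were: its log2 CPM correlated at 0.971 to 0.975 with the sham libraries, and theirs at 0.933 to 0.941. Within TAC the correlations were alike, at 0.961 for replicates 1 and 2, 0.957 for 1 and 3, and 0.960 for 2 and 3. Without it edgeR called Tbx20 higher and Tbx5 lower, against 13.2% and 10% of all genes.

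**Figure D1:**
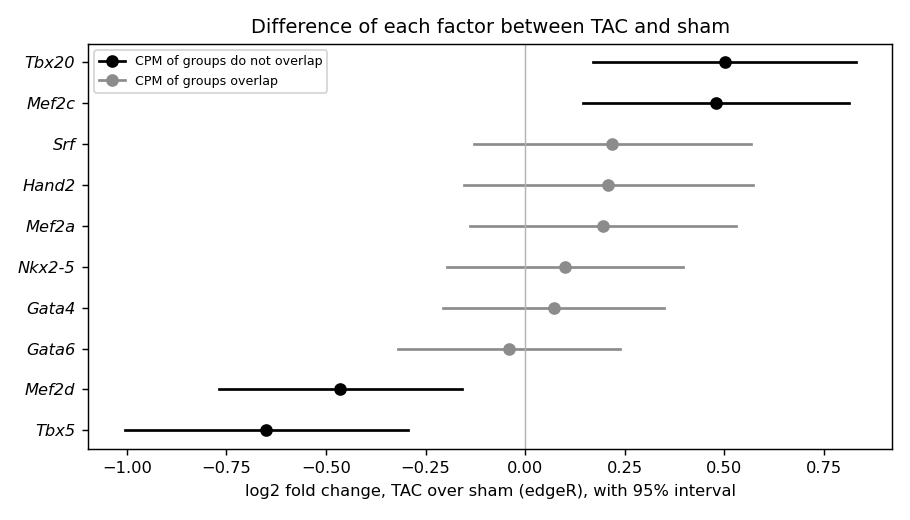
The x axis is the log2 fold change of each factor, TAC over sham, from edgeR, and bars are 95% intervals (3 libraries per group). Tbx5 and Mef2d (negative) and Tbx20 and Mef2c (positive) have intervals that leave out 0, but none passed after adjustment over all genes.

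Tbx5, a T-box activator of atrial and conduction genes that is also active in the ventricle, had the smallest p of the set. Its gene lies on chromosome 5 from 119832668 to 119885219 (GRCm38, plus strand). It stood at 44.2, 62.9 and 50.1 CPM in sham replicates 1, 2 and 3 and at 35.6, 34.8 and 29.8 CPM in TAC replicates 1, 2 and 3. All TAC libraries were below all sham libraries, and TAC replicate 1, the nearest TAC library to sham over the whole table, was at the level of TAC replicate 2. The log2 fold change was -0.65 (SE 0.15; by edgeR, adjusted p = 0.0656), or 0.637 of the sham level with a 95% interval of 0.498 to 0.815. By an exact permutation test of the 6 libraries (two-sided) p was 0.1, which is the lowest value open to 3 against 3. In bulk tissue, fewer cells that express a gene and less RNA per cell cannot be told apart.

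Tbx20, a T-box factor that can repress as well as activate and is needed in adult cardiomyocytes, was higher in TAC in each library. It lies on chromosome 9 from 24718138 to 24774303 on the minus strand. It was at 107, 105 and 87.8 CPM in sham and at 124, 163 and 138 CPM in TAC. The groups did not overlap, and TAC replicate 1 was the closest of the TAC libraries to sham. Its log2 fold change was 0.50 (SE 0.14; by edgeR, adjusted p = 0.0880; exact permutation p = 0.1), a fold of 1.42 with a 95% interval of 1.13 to 1.78.

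Per transcript length, the order of the T-box genes differed between the groups. In sham, Tbx5 had 15.93, 21.69 and 18.17 FPKM and Tbx20 had 11.94, 11.49 and 10.46 FPKM. In TAC, Tbx5 had 11.56, 12.43 and 10.73 FPKM and Tbx20 had 13.04, 18.26 and 16.06 FPKM. The FPKM of Tbx5 was thus above that of Tbx20 in every sham library and below it in every TAC library. The ratio of Tbx5 to Tbx20 FPKM was 1.65 ± 0.286 in sham and 0.745 ± 0.123 in TAC (SD, n = 3 each), and replicate 1 of TAC, at 0.887, was nearest to the sham range of 1.33 to 1.89. By CPM, which is not divided by length, Tbx20 was above Tbx5 in every library. The ratio of Tbx5 to Tbx20 CPM was 0.412 to 0.598 in sham and 0.213 to 0.288 in TAC, without overlap. These ratios were chosen after their values were seen, and they were not tested.

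**Figure D2:**
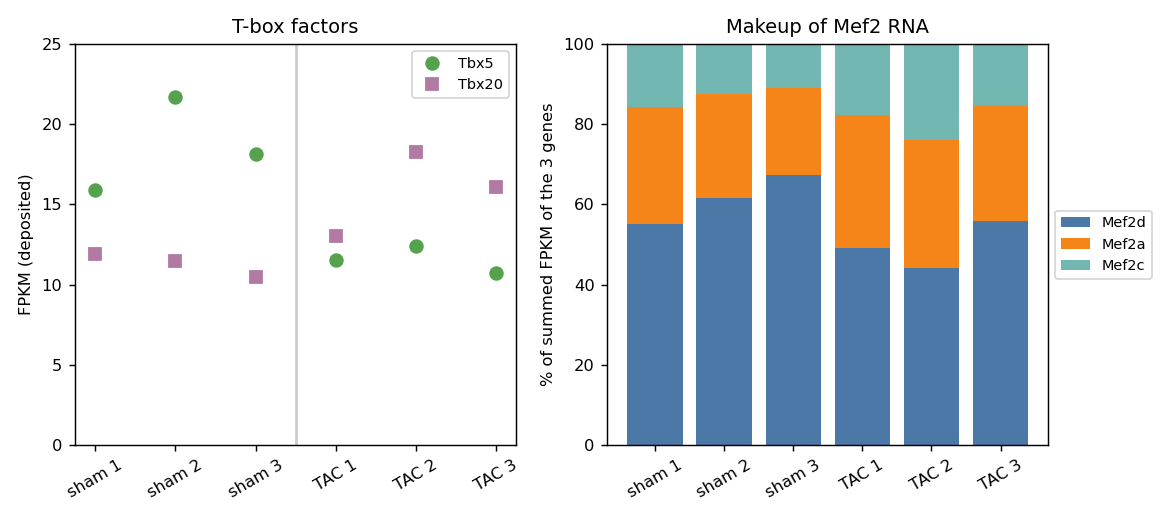
Left, deposited FPKM of Tbx5 and Tbx20 in each library: Tbx5 is above Tbx20 in the 3 sham libraries and below it in the 3 TAC libraries. Right, the percentage of the summed FPKM of Mef2a, Mef2c and Mef2d that each gene holds: Mef2d holds 55.2% to 67.4% in sham and 44.2% to 55.9% in TAC.

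Within the MEF2 family the differences of Mef2d and Mef2c had opposite signs, and neither passed the test. Mef2d, an effector of stress signalling in adult heart muscle whose gene lies on chromosome 3 from 88142372 to 88172086, was the most abundant member in sham. It was at 175.5, 205 and 226 CPM in sham and at 141, 145 and 154 CPM in TAC. The TAC libraries were close to one another and all below sham. The log2 fold change was -0.46 (SE 0.13; by edgeR, adjusted p = 0.0880; exact permutation p = 0.1), a fold of 0.725 with a 95% interval of 0.587 to 0.896. On FPKM the groups touched: sham ran from 42.55 to 56.75 and TAC from 32.76 to 42.73.

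Mef2c, which is required for the development of the ventricle and is also expressed in other cells of the heart, lies on chromosome 13 from 83504034 to 83667080. It was at 49.1, 42.4 and 37.2 CPM in sham and at 56.4, 68.4 and 54.6 CPM in TAC, with no overlap and TAC replicate 2 highest. The log2 fold change was 0.48 (SE 0.15; by edgeR, adjusted p = 0.0976; exact permutation p = 0.1), a fold of 1.39 with a 95% interval of 1.11 to 1.76. On FPKM sham replicate 1, at 12.05, was above TAC replicates 1 and 3, at 11.85 and 11.82, so the groups overlapped there. With limma-trend on log2 of FPKM plus 1 the difference was 0.42 (SE 0.21, adjusted p = 0.276).

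Mef2a, the MEF2 factor tied to mitochondrial and conduction genes of the adult heart, lies on chromosome 7 from 67231163 to 67372858. It was at 112, 99.9 and 86.4 CPM in sham and at 114, 129 and 98.7 CPM in TAC. The groups overlapped, with a log2 fold change of 0.20 (SE 0.15; by edgeR, adjusted p = 0.422). The summed FPKM of the 3 genes was 80.0 ± 3.73 in sham and 75.9 ± 8.96 in TAC (SD, n = 3 each), ranges that overlap. The share of Mef2d in that sum was 55.2%, 61.7% and 67.4% in sham and 49.1%, 44.2% and 55.9% in TAC, so the groups overlapped, with sham replicate 1 just under TAC replicate 3. The ratio of Mef2d to Mef2c was 3.57 to 6.08 in sham and 2.12 to 2.82 in TAC by CPM, without overlap. By FPKM it was 3.53 to 6.16 in sham and 1.84 to 3.62 in TAC, and the groups overlapped. These shares and ratios were chosen after the values were seen and were not tested.

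Gata4, a main activator of natriuretic peptide and myosin genes and an integrator of hypertrophic signals, lies on chromosome 14 from 63198922 to 63271692. It was at 100.2, 111 and 116 CPM in sham and at 104, 116 and 125 CPM in TAC. The ranges largely coincided, with a log2 fold change of 0.07 (SE 0.12; by edgeR, adjusted p = 0.731) and a 95% interval for the fold of 0.867 to 1.27. Gata6, its relative with partly shared functions in cardiomyocytes and vascular smooth muscle, lies on chromosome 18 from 11052064 to 11085635. It was at 51.3, 57.8 and 54.2 CPM in sham and at 54.4, 46.5 and 57.8 CPM in TAC. Its log2 fold change was -0.04 (SE 0.12; by edgeR, adjusted p = 0.856), with an interval for the fold of 0.802 to 1.18. Neither gene was separated between the groups, and fold changes inside these intervals remain compatible with the values of 3 libraries a group.

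Nkx2-5, the homeodomain partner of GATA4 and TBX5, lies on chromosome 17 from 26838664 to 26845009. It had the smallest spread of the set in sham, at 41.0, 43.1 and 40.2 CPM. In TAC it was at 39.2, 42.8 and 51.3 CPM, so that replicate 3 alone stood above the sham range. The log2 fold change was 0.10 (SE 0.13; by edgeR, adjusted p = 0.646) and the interval for the fold was 0.873 to 1.32.

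Hand2, a factor of the right ventricle and outflow tract in embryos that is also expressed in cardiac fibroblasts and neurons, lies on chromosome 8 from 57320983 to 57324633. It was at 37.4, 42.0 and 37.8 CPM in sham and at 39.6, 40.0 and 56.0 CPM in TAC. As for Nkx2-5, TAC replicate 3 alone was above every sham library. The log2 fold change was 0.21 (SE 0.16; by edgeR, adjusted p = 0.430), and it was 0.01 without TAC replicate 3 (adjusted p = 0.967).

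Srf, which couples actin dynamics and growth signals to sarcomere and immediate early genes, lies on chromosome 17 from 46548329 to 46556175. It was at 64.2, 71.9 and 66.9 CPM in sham and at 63.2, 80.2 and 93.0 CPM in TAC. TAC replicate 1 was the lowest of all 6 libraries, and TAC replicates 2 and 3 were above all sham libraries. The log2 fold change was 0.22 (SE 0.15; by edgeR, adjusted p = 0.387), and 0.34 without TAC replicate 1 (SE 0.10, adjusted p = 0.0575). Its promoter is the one with 2 CArG boxes above.

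Whether counting used strand is not stated, so reads from overlapping genes cannot be told apart from those of a member. On the opposite strand, 1010001N08Rik overlaps Gata6, Lysmd4 overlaps Mef2a, 1700113A16Rik overlaps Mef2d, Hand2os1 overlaps Hand2 and Gm26904 overlaps Srf. Of these only Lysmd4 is a gene of the deposited table. No overlap was annotated for Gata4, Nkx2-5, Mef2c, Tbx5 or Tbx20. The counts of all 10 members were whole numbers in every library.

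**Figure D3:**
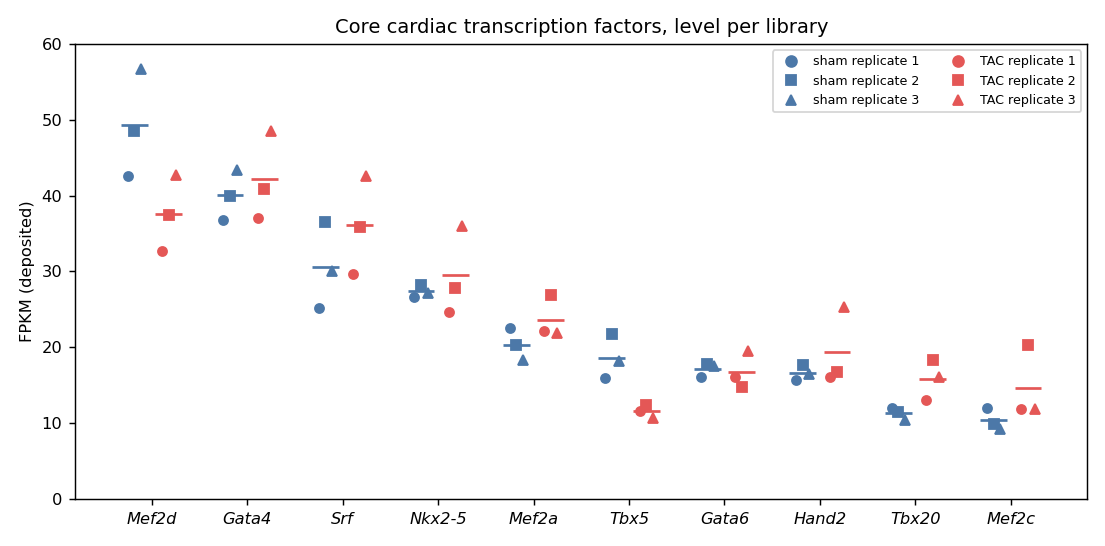
The y axis is the deposited FPKM of each factor, with 1 symbol per library and a bar at the group mean, ordered by the sham mean. Mef2d and Gata4 are highest, and Tbx5 drops from the sixth to the last place in TAC.

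By mean FPKM in sham the order was Mef2d (49.3 ± 7.13), Gata4 (40.1 ± 3.30), Srf (30.6 ± 5.66), Nkx2-5 (27.4 ± 0.778), Mef2a (20.3 ± 2.14), Tbx5 (18.6 ± 2.90), Gata6 (17.1 ± 0.914), Hand2 (16.6 ± 0.969), Tbx20 (11.3 ± 0.759) and Mef2c (10.4 ± 1.48) (SD, n = 3). Neighbours whose libraries did not overlap were Gata4 and Srf, Nkx2-5 and Mef2a, and Hand2 and Tbx20. The other neighbours were not separated beyond their spread. Each factor was at or above the 66.5th percentile of the sham FPKM of tested genes, with Mef2d at the 91.9th. In TAC the mean order began with Gata4 (42.2 ± 5.81) and Mef2d (37.6 ± 4.99) and ended with Tbx20 (15.8 ± 2.62), Mef2c (14.7 ± 4.89) and Tbx5 (11.6 ± 0.850). There, every pair of neighbours overlapped.

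The length that links count and FPKM was not constant for some members, and CPM and FPKM also differ in scaling, since only CPM uses TMM library sizes. Dividing a count by its FPKM and by the total count of the library returns the transcript length behind the FPKM. For Hand2, which has 1 annotated transcript of 2351 bases, it was 2350 or 2351 bases in every library. For Mef2c, with 27 annotated coding transcripts of 332 to 6277 bases, it was 4022, 4227 and 4140 bases in sham and 4530, 3321 and 4895 bases in TAC. TAC replicate 2 thus had the shortest Mef2c length and TAC replicate 3 the longest, 47.4% above it. Mef2c FPKM in TAC replicate 2 was 20.30, against CPM that differed far less from the other TAC libraries.

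The same length for Srf ranged from 1945 bases in sham replicate 2 to 2513 in sham replicate 1, a range of 29.2% that lay within 1 group. For Mef2d it was 4070 to 4157 bases in sham and 4096, 3816 and 3813 bases in TAC, so TAC replicates 2 and 3 were shorter than the rest. The lengths of the other 7 members varied by at most 7.65%. Of 9593 genes with at least 100 counts and 1 FPKM in every library, 26.8% had a range over 10%, as had 2 of the 10 members (Mef2c and Srf). The groups did not overlap in 11.8% of those genes and in 0 members. The table does not give transcripts, so which isoforms lie behind these lengths was not analysed here.

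**Figure D4:**
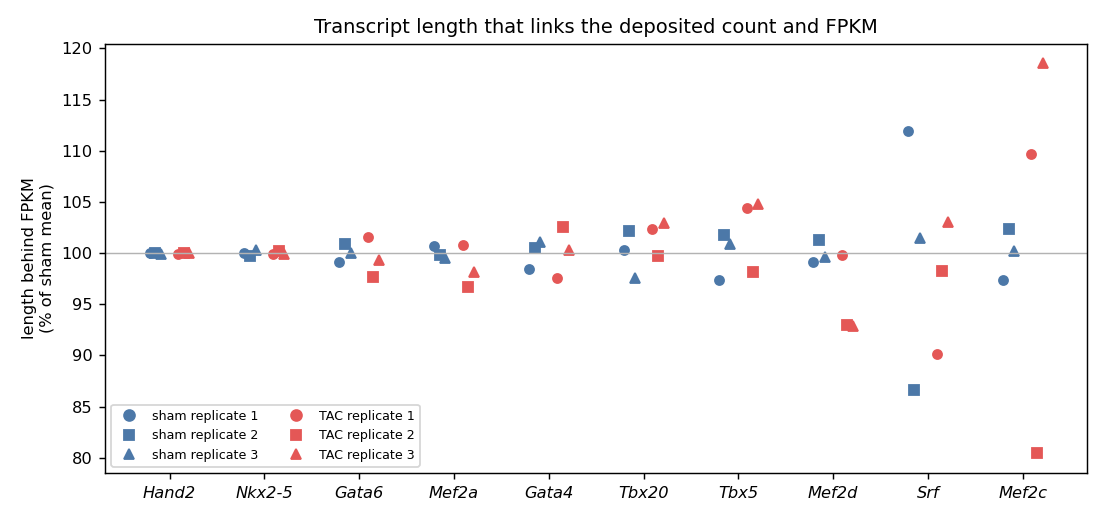
The y axis is the transcript length implied by the deposited count and FPKM, as a percentage of the sham mean of that gene, with 1 symbol per library. Hand2 and Nkx2-5 are flat, while Srf spreads within sham and Mef2c within TAC.

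Partners of the core factors were not called. Of 20 tested coactivators and partner proteins, 0 were higher and 0 lower (edgeR, adjusted over all genes), with a median log2 fold change of 0.00 beside 0.03 for all tested genes. At an unadjusted p under 0.05, 2 were higher and 1 lower, against 16.3% and 9.26% of all tested genes. The most abundant were Fhl2, a LIM-domain cofactor of SRF (log2 fold change -0.22, SE 0.26, edgeR adjusted p = 0.623), and Csrp3, the muscle LIM protein (0.65, SE 0.19, adjusted p = 0.0911). Csrp3 was at 631 to 661 CPM in sham and at 802, 948 and 1292 CPM in TAC. Myocd, the heart and smooth muscle coactivator of SRF, named after its values were seen, was at 33.0 to 38.2 CPM in sham and at 26.7 to 44.0 CPM in TAC.

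Regulators of MEF2 were likewise not called. They include class II histone deacetylases that hold MEF2 silent, the kinases that drive these from the nucleus, and the 14-3-3 proteins that bind them. The list also holds other regulators of MEF2. Of 17 tested, 0 were higher and 0 lower, with a median of -0.02. At an unadjusted p under 0.05, 3 were higher and 2 lower, against 16.3% and 9.26% of all tested genes. The abundant 14-3-3 genes Ywhae and Ywhaz had log2 fold changes of 0.10 (SE 0.13; by edgeR, adjusted p = 0.656) and 0.37 (SE 0.14, adjusted p = 0.148). Chosen after their values were seen, the deacetylase gene Hdac5 was at 72.7 to 90.4 CPM in sham and at 72.8, 52.3 and 52.7 CPM in TAC, and the kinase gene Sik1 was at 18.7 to 35.6 CPM in sham and at 34.6, 67.5 and 83.9 CPM in TAC.

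Described target genes spread much further than the factors. Among 20 sarcomere targets 1 was higher, Myh7, the slow myosin heavy chain (log2 fold change 4.03, SE 0.70, edgeR adjusted p = 0.0379), and 0 were lower. Among 20 targets in signalling, channels, calcium and metabolism 1 was higher, Nppb, the natriuretic peptide B gene (3.63, SE 0.52, adjusted p = 0.0242), and 0 were lower. Among 22 cytoskeletal and immediate early targets of SRF 1 was higher, Ankrd1, a stress-responsive sarcomere protein (2.85, SE 0.37, adjusted p = 0.0172), and 0 were lower. Of all tested genes, 1.12% were called higher and 0.54% lower. The medians of the lists were 0.02, -0.15 and 0.48. At an unadjusted p under 0.05 by edgeR, 4 sarcomere targets were higher and 1 lower. For the signalling, channel, calcium and metabolic targets, 4 were higher and 6 lower, against 16.3% and 9.26% of all tested genes. The calls of Myh7, Nppb and Ankrd1 were each lost when any 1 sham library or TAC replicate 2 was left out. By edgeR the adjusted p then ranged up to 0.209 for Myh7, 0.179 for Nppb and 0.134 for Ankrd1, all without sham replicate 2. The call of Myh7 was also lost without TAC replicate 3. The Myh7 call was lost as well with limma-voom (adjusted p = 0.05004), with limma-trend on log2 of FPKM plus 1 (0.0718) or plus 0.1 (0.0660), and with the replicate block (0.0550), while those of Nppb and Ankrd1 passed in these fits. Myh7 had fractional counts, a sign that reads were shared out among near-identical genes, and its value is uncertain for that reason.

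Across the TAC libraries the SRF targets and Srf had the same order. Gata4, Nkx2-5, Hand2 and Mef2d rose in that order too, so it was not particular to Srf. The median of the targets stood at -0.04, 0.42 and 0.79 log2 units from the sham mean in TAC replicates 1, 2 and 3, and Srf itself stood at -0.10, 0.25 and 0.46, which is a description of 3 libraries. At an unadjusted p under 0.05, 6 SRF targets were higher and 3 lower, against 16.3% and 9.26% of all tested genes. The 3 lower ones (Acta2, Tagln and Cnn1) are smooth muscle genes. Nppb, a target of GATA4, was 166.6, 564 and 842 CPM in TAC replicates 1, 2 and 3. Gata4 rose in the same order but far less, at 104, 116 and 125 CPM.

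Other factors of the same families and other cardiac developmental regulators had 0 higher and 1 lower of 23 tested (median -0.15). The gene that fell was Heyl, a Notch-responsive repressor of vascular mural cells, with a log2 fold change of -0.89 (SE 0.16; by edgeR, adjusted p = 0.0414). It was at 42.4 to 53.0 CPM in sham and at 25.1, 31.7 and 22.8 CPM in TAC. Its call, like those of Tie1, Dbh and the leukocyte genes S100a8, S100a9, Ccr2 and Cd68, was lost without any 1 library other than TAC replicate 1 (Heyl adjusted p up to 0.225 by edgeR). With the replicate block these 7 calls were also lost (adjusted p from 0.0668 for Ccr2 and Cd68 to 0.105 for Tie1). With limma-trend on log2 of FPKM plus 1 those of Heyl (0.0569), Cd68 (0.0597), Ccr2 (0.0609) and Dbh (0.0659) were lost. With limma-voom those of Cd68 (0.0524), Dbh (0.0543), Ccr2 (0.0730), S100a9 (0.0933) and S100a8 (0.105) were lost. At an unadjusted p under 0.05, 0 of the 23 were higher and 6 lower, against 16.3% and 9.26% of all tested genes. Nkx2-3 and Nkx2-6 had no counts in any library.

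Markers of several cell types moved between the libraries beside these genes. Of 12 cardiomyocyte markers 0 passed. Their summed CPM was 59249 to 60910 in sham and 41020 to 60622 in TAC, and their median stood at 0.08, -0.23 and -0.68 log2 units from the sham mean in TAC replicates 1, 2 and 3. Atrial markers, which matter for Tbx5, had 0 of 10 called, a median log2 fold change of -0.54 and summed CPM of 2458 to 3882 in sham and 2804 to 3648 in TAC. The 2 most abundant were Nppa (log2 fold change 0.38, SE 0.21, edgeR adjusted p = 0.283) and Myl4 (-0.49, SE 0.22, adjusted p = 0.208). A large part of the atrial sums was Nppa, at 1286 to 2078 CPM in sham and 1847 to 2449 CPM in TAC. Of the 10 atrial markers, 2 had a positive and 8 a negative log2 fold change, so the sums do not describe the list as a whole. Ventricular markers had 0 of 6 called and summed 8709 to 9732 CPM in sham and 6565 to 10520 CPM in TAC. RNA of both atrial and ventricular markers was thus present in each group.

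Non-muscle cells also express core factors, among them Gata6, Mef2c, Tbx20, Hand2 and Srf. Of 10 endothelial markers 1 was lower, the receptor gene Tie1 (log2 fold change -0.63, SE 0.11, edgeR adjusted p = 0.0414), with a list sum of 2315 to 2528 CPM in sham and 2103 to 2392 CPM in TAC. Of 10 fibroblast markers 0 passed, with sums of 4935 to 5646 CPM in sham and 3138 to 3793 CPM in TAC. A large part of these sums was Gsn, at 2573 to 2852 CPM in sham and 725 to 1719 CPM in TAC. The other fibroblast markers, except Tcf21, overlapped between the groups, so the sums do not describe the list as a whole. Of 10 mural cell markers 0 passed, with sums of 1517 to 1774 and 1147 to 1483 CPM. Of 11 leukocyte markers 5 were higher, S100a8, S100a9, Ccr2 and Cd68 among them, and 0 lower, with sums of 510 to 598 CPM in sham and 678 to 1119 CPM in TAC. Of 8 epicardial markers 0 passed, with sums of 60.7 to 240.9 CPM in sham and 80.4 to 127 CPM in TAC. Of 7 adipocyte markers 0 passed, with sums of 593 to 1071 and 493 to 848 CPM. A large part of these sums was Fabp4, also listed as an endothelial marker, at 442 to 620 CPM in sham and 479 to 637 CPM in TAC. The adipocyte median stood at 0.05, 0.30 and -3.58 log2 units from the sham mean in TAC replicates 1, 2 and 3. In sham replicates 1, 2 and 3 it stood at -0.20, -0.95 and 0.94. Of 6 Schwann cell and neuronal markers 1 was lower, Dbh, an enzyme of noradrenaline synthesis (by edgeR, adjusted p = 0.0439), with sums of 22.9 to 32.1 and 22.8 to 29.2 CPM. No marker in these lists was at 0 in every library. The part of cell makeup in the values of the core factors was not tested.

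**Figure D5:**
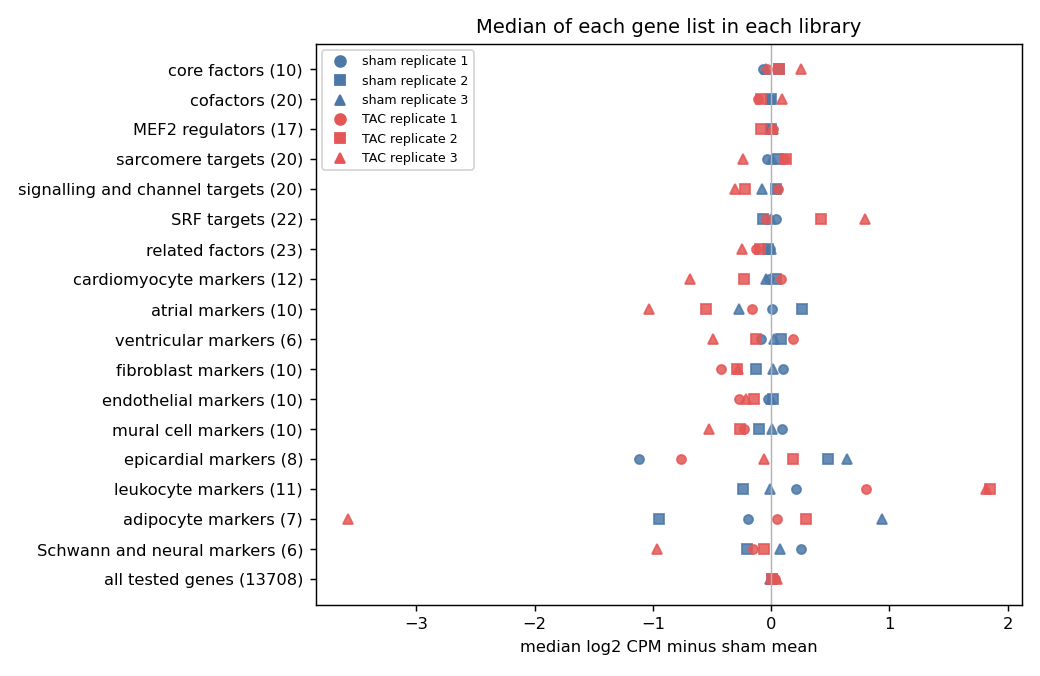
The x axis is the median log2 CPM of each gene list minus its sham mean, with 1 symbol per library and the number of tested genes in brackets. The median of the core factors is 0.25 in TAC replicate 3 and between -0.07 and 0.07 in the other libraries. SRF targets are higher in TAC replicates 2 and 3. Cardiomyocyte, atrial and adipocyte markers, among others, are lowest in TAC replicate 3, the adipocyte markers by far.

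Genes with the most similar pattern were sought for the 3 members with the smallest p, by Pearson's r of log2 CPM over the 6 libraries among 12778 other genes averaging 1 CPM or more. For Tbx5 they were Bicral (r = 0.994), Whamm (0.990) and Lama5 (0.990), and 63 genes had an r over 0.95. For Mef2d they were Snx21 (0.998), Zfp512b (0.997) and Numa1 (0.991), with 69 genes over 0.95. For Tbx20 they were Cflar (0.999), Zfp729a (0.997) and Qser1 (0.997), with 460 genes over 0.95. With only 6 libraries, these values are a description. Of the 9 genes none passed the test (edgeR adjusted p from 0.0557 for Lama5 to 0.204 for Bicral).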

How the data were processed

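The authors deposited 1 table that gives each gene an estimated count and an FPKM for each library, per the file headers. Bowtie2 2.2.8, HISAT2, StringTie 1.3.1 and DESeq2 on GRCm38 are named in the submitters' processing notes. The sources used here do not give which tool made which column. Groups came from sample titles. Symbols and coordinates came from GENCODE M21 (GRCm38), which with the gene name table matched 22255 of 22298 identifiers, and the other 43 held at most 0.00196% of a library's counts. Library totals were 19747265 to 27549838 estimated counts, and mitochondrial genes took 25.7% to 30.5%. No 2 replicates agreed within sampling noise.

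Rounded counts entered edgeR 4.0.16 under R 4.3.3 (filterByExpr, minimum count 10, TMM, glmQLFit, glmQLFTest, no covariate), TAC against sham, two-sided, Benjamini-Hochberg adjusted over all genes tested, threshold 0.05. The SE is the log2 fold change divided by the square root of F, an approximation, and 95% intervals use it. The permutation test used log2 of CPM plus 0.5. The fit was tested on simulated data with less spread than these data and with larger differences than those of the members. That test therefore does not show its power for the members. Alternatives were 16 other fits, with DESeq2 1.42.0 and limma 3.58.1 among the tools. Named genes were all 10 members and, per list, up to 4 called genes or else the 2 most abundant. Promoters held 250 bases before and 50 after the start. The members and the 16 other lists were chosen with earlier results of these data known, and the analyses of implied length and of ratios were added after values were seen. Of the cofactor and SRF target lists, 2 older symbols each duplicated a listed gene.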

Additional observations from a re-analysis of the deposited data

How the results depend on the processing

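Over 16 alternative fits no direction changed for Tbx5, Mef2d, Tbx20, Mef2c, Mef2a, Hand2 or Srf. DESeq2's Wald test called 1 member higher, Tbx20 (log2 fold change 0.48, adjusted p = 0.0345), and 2 lower, Tbx5 (-0.68, adjusted p = 0.00499) and Mef2d (-0.49, adjusted p = 0.00933). It did not call Mef2c (0.45, adjusted p = 0.0623). In all it called 1063 genes higher and 594 lower, against 153 and 74 in the main edgeR fit. With 1 library left out, 0 to 1 members were higher and 0 to 1 lower, and 4 to 1837 genes were higher and 8 to 1392 lower. The calls of 1 member came without TAC replicate 1: Tbx20 (0.58, adjusted p = 0.0276) and Tbx5 (-0.71, adjusted p = 0.0299). Over the other fits the adjusted p of Tbx5 ranged up to 0.265 and that of Tbx20 up to 0.318, both without sham replicate 3.

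Fewer genes were called higher by limma-voom (96) and by limma-trend on log2 of FPKM plus 1 (59) or plus 0.1 (64). With the replicate number as a block, 48 genes were higher, 26 lower and 0 members called. Deviations of same-numbered libraries from their group means correlated at 0.01, -0.11 and -0.02. By the same measure sham replicate 1 was closest to TAC replicate 2, at 0.06. No shared effect of the replicate number was seen, but values this near 0 cannot show whether the samples were paired.

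With 1 library left out in turn, the sign turned, never past the threshold, for genes whose log2 fold changes then ranged from -0.0085 to 0.13 (Gata4, negative without sham replicate 1, and -0.0077 without TAC replicate 3), from -0.12 to 0.016 (Gata6), from -0.030 to 0.17 (Nkx2-5), from -0.47 to 0.0022 (Fhl2), from -0.00090 to 0.16 (Ywhae), from -0.23 to 0.089 (Myl2), from -0.45 to 0.021 (Dcn), from -0.057 to 0.31 (Rgs5), from -1.35 to 0.079 (Cfd) and from -0.054 to 0.22 (Fabp4, also -0.04 without sham replicate 1). The turns were without TAC replicate 3 for Nkx2-5, Fhl2, Ywhae, Myl2 and Dcn, without TAC replicate 2 for Gata6, Rgs5 and Fabp4, and without sham replicate 3 for Cfd. The causes were not tested. With 3 libraries a group, the precision is limited by spread between libraries and not by depth.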

Other observations

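Some genes of heart chambers and the conduction system, picked after their values were seen, were lower in TAC, and none passed the test. Sln, the sarcolipin gene of atrial calcium handling, was at 91.1 to 130.3 CPM in sham and at 75.2, 57.5 and 37.3 CPM in TAC replicates 1, 2 and 3 (log2 fold change -0.96, edgeR adjusted p = 0.0757). Sbk2, an atrial kinase gene, was at 25.3 to 34.5 CPM in sham and at 19.9, 7.21 and 5.40 CPM in TAC (-1.42, edgeR adjusted p = 0.0990). Hcn4, the pacemaker channel gene, was at 12.2 to 17.4 CPM in sham and at 11.2, 6.47 and 4.42 CPM in TAC (-0.98, edgeR adjusted p = 0.110). The ventricular marker Kcnip2, a potassium channel subunit gene, was lower too, at 120.8 to 182.6 CPM in sham and at 97.4, 34.1 and 11.6 CPM in TAC (-1.71, edgeR adjusted p = 0.139), so lower values were not particular to atrial genes. The atrial marker Stard10 was also lower without overlap, if narrowly. It was at 73.0 to 97.4 CPM in sham and at 72.9, 39.6 and 37.2 CPM in TAC (-0.77, edgeR adjusted p = 0.115). The remaining atrial markers overlapped between the groups. Bmp10 was at 139.6 to 302.3 CPM in sham and at 181.5 to 357.5 CPM in TAC. Nr2f2 was at 13.9 to 17.2 CPM in sham and at 13.8 to 16.5 CPM in TAC. Nppa had a log2 fold change of 0.38. Whether the amount of atrial tissue per sample differed was not tested.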
